A study of Mus musculus with 18 samples.

Results

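The 6 libraries described here came from C2C12 cells that overexpress the spliced form of MUNC, a noncoding RNA from the region upstream of Myod1. They are 6 of the 18 libraries of the series and were chosen by the title of the sample. C2C12 is a mouse myoblast line, and per the labels the stock was PAX7 NEG. In growth medium (GM) 3 libraries were made at about 80% confluency in 20% fetal bovine serum, and in differentiation medium (DM3) 3 libraries were made after 3 days in 2% HS. Polyadenylated RNA was sequenced. The comparison groups were wild-type control C2C12 cells and MUNC genomic overexpressing cells, each with 3 libraries in each medium. The labels call the 3 libraries of a group biological replicates and do not say whether an overexpressing line is 1 clone or a pool. No gene in the table carried a name of MUNC, so the overexpression itself could not be checked from these values.

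A second label, the source name, disagreed with the title on myoblast or myotube in 9 of 18 libraries, 2 of them GM libraries of MUNC spliced cells. The tissue field disagreed with the title in 0 of 18, and groups were taken from titles. Recovered depth in the 6 libraries ran from 38416702 to 56114438 reads, and replicates of these cells correlated at r of 0.980 to 0.993 across genes. On the first principal component, which held 41.5% of the variance, the GM libraries lay at -28.8, -3.63 and -35.3 and the DM3 libraries at 32.5, 59.5 and 62.8. The groups did not overlap, and DM3 replicate 1 and GM replicate 2 were the libraries nearest to the other medium.

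When serum is withdrawn, myoblasts leave the cell cycle, switch on myogenin and then the genes of the contractile apparatus, and fuse into multinucleated myotubes. MyoD, Myf5 and myogenin are basic helix-loop-helix factors that bind E-boxes in muscle genes with E-protein partners, and Id proteins hold those partners back. Bulk libraries cannot tell more RNA per cell from more cells of a type, and this holds for every value below.

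Levels are in FPM, fragments scaled to library size and not to gene length, so a level is compared between libraries and not between genes. Changes are DM3 minus GM on log2(FPM + 1), a scale on which low genes move less than their ratio. Of 13869 genes tested with limma, 4933 (35.6%) passed the threshold of 0.05 after Benjamini-Hochberg adjustment and are termed called. In DM3 2388 genes (17.2%) rose and 2545 (18.4%) fell, and the median change of all tested genes was -0.01. The 3 DM3 libraries lay above the 3 GM libraries in 21.3% of tested genes and below them in 23.3%, so that 44.6% did not overlap. Without DM3 replicate 1, 2588 genes rose and 2630 fell. The lists below hold genes that passed the filter on low values through any of the 6 groups, so their counts describe those genes only. The shares of 17.2% higher and 18.4% lower over all tested genes stand as background to each list count.

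**Figure D1:**
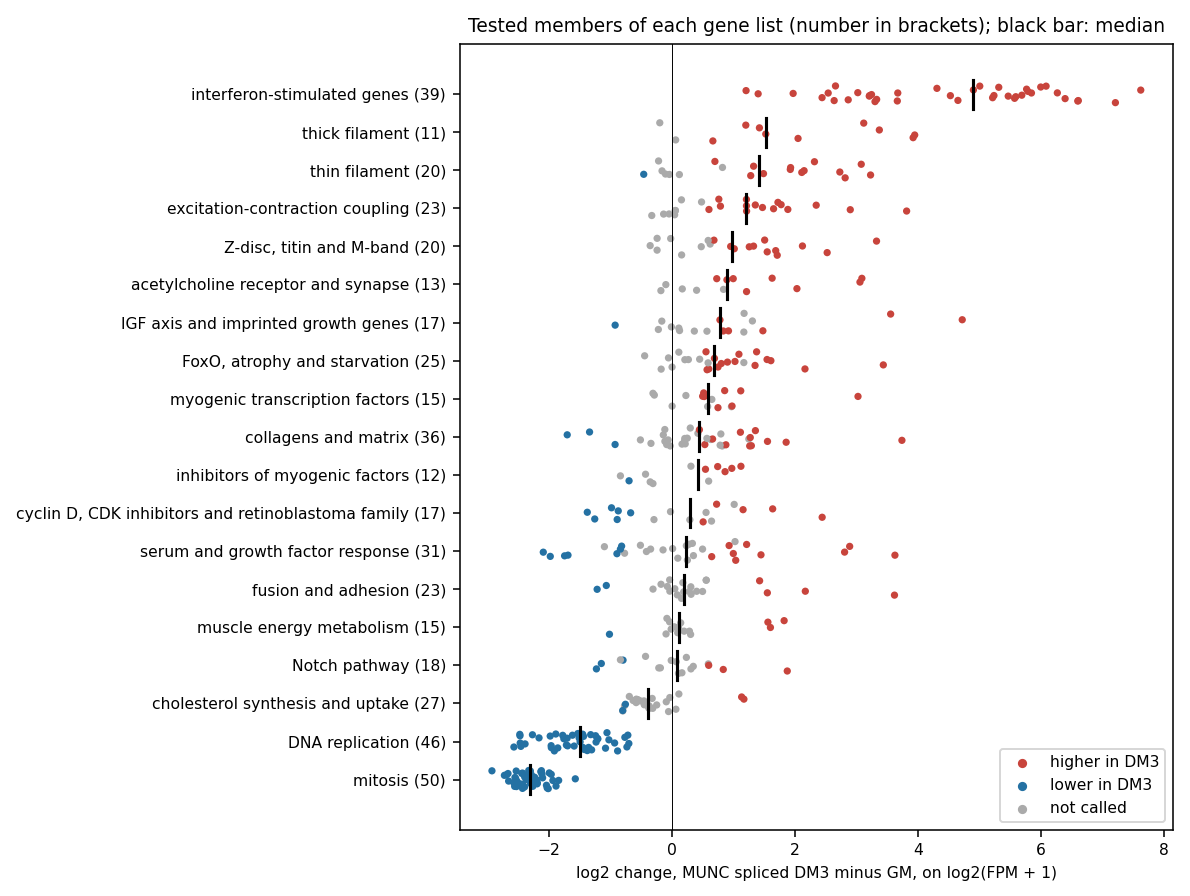
Log2 change (DM3 minus GM, on log2(FPM + 1)) of each tested member of 19 gene lists in MUNC spliced cells, with called members in colour and the list median as a black bar. Interferon-stimulated genes lie furthest right, with a median of 4.90, and mitosis genes furthest left, with a median of -2.31.

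Among myogenic transcription factors 8 of 15 tested genes rose and 0 fell, with a median change of 0.58. Myogenin (Myog), which starts terminal differentiation, was at 9.72, 12.6 and 5.48 FPM in GM and at 226, 52.6 and 41.0 FPM in DM3. The groups did not overlap, and replicate 1 stood above the other DM3 libraries. Myog rose by 3.02 ± 0.45 (log2, SE, n = 3 against 3, limma adjusted p = 0.000128) and by 2.27 without DM3 replicate 1 (adjusted p = 1.82e-05). Myod1, the factor beside the MUNC locus, was at 17.9, 8.84 and 10.5 FPM in GM and at 53.3, 16.4 and 16.0 FPM in DM3. These groups overlapped, and the change of 0.97 ± 0.41 did not pass the test (limma adjusted p = 0.0750). It passed without GM replicate 1 and without DM3 replicate 3, at 1.25 in both cases, and was 0.41 without DM3 replicate 1 (adjusted p = 0.365). Myf5, the factor of proliferating myoblasts, went from 53.2, 63.8 and 59.0 FPM to 125, 103 and 95.5 FPM. Every DM3 library exceeded every GM library, and Myf5 rose by 0.86 ± 0.17 (limma adjusted p = 0.00115). Mef2a, a MADS-box partner of the MyoD family, rose by 0.98 ± 0.19, and the E-protein gene Tcf4 by 1.12 ± 0.35. The call for Tcf4 was lost without GM replicate 1 or 3 or without DM3 replicate 2 or 3, at limma adjusted p of 0.067 to 0.102. Mef2c did not pass the filter and was listed at 0 to 0.152 FPM.

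Of 12 tested inhibitors of myogenic factors 5 rose (41.7%) and 1 fell (8.33%), against 17.2% and 18.4% of all tested genes. Their median change was 0.43, which was 0.23 without DM3 replicate 1 and 0.22 without GM replicate 3. The Id genes that hold back E proteins overlapped between the media. Id1 was at 53.9, 16.9 and 48.9 FPM in GM and at 39.3, 35.6 and 15 FPM in DM3, and Id3 changed by 0.60 ± 0.43 (limma adjusted p = 0.291). The repressors Bhlhe40, Zeb1 and Snai2 rose, by 1.12 ± 0.15, 0.97 ± 0.16 and 0.86 ± 0.30. The call for Snai2 was lost without any single library but GM replicate 1, at limma adjusted p of 0.0502 to 0.134.

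**Figure D2:**
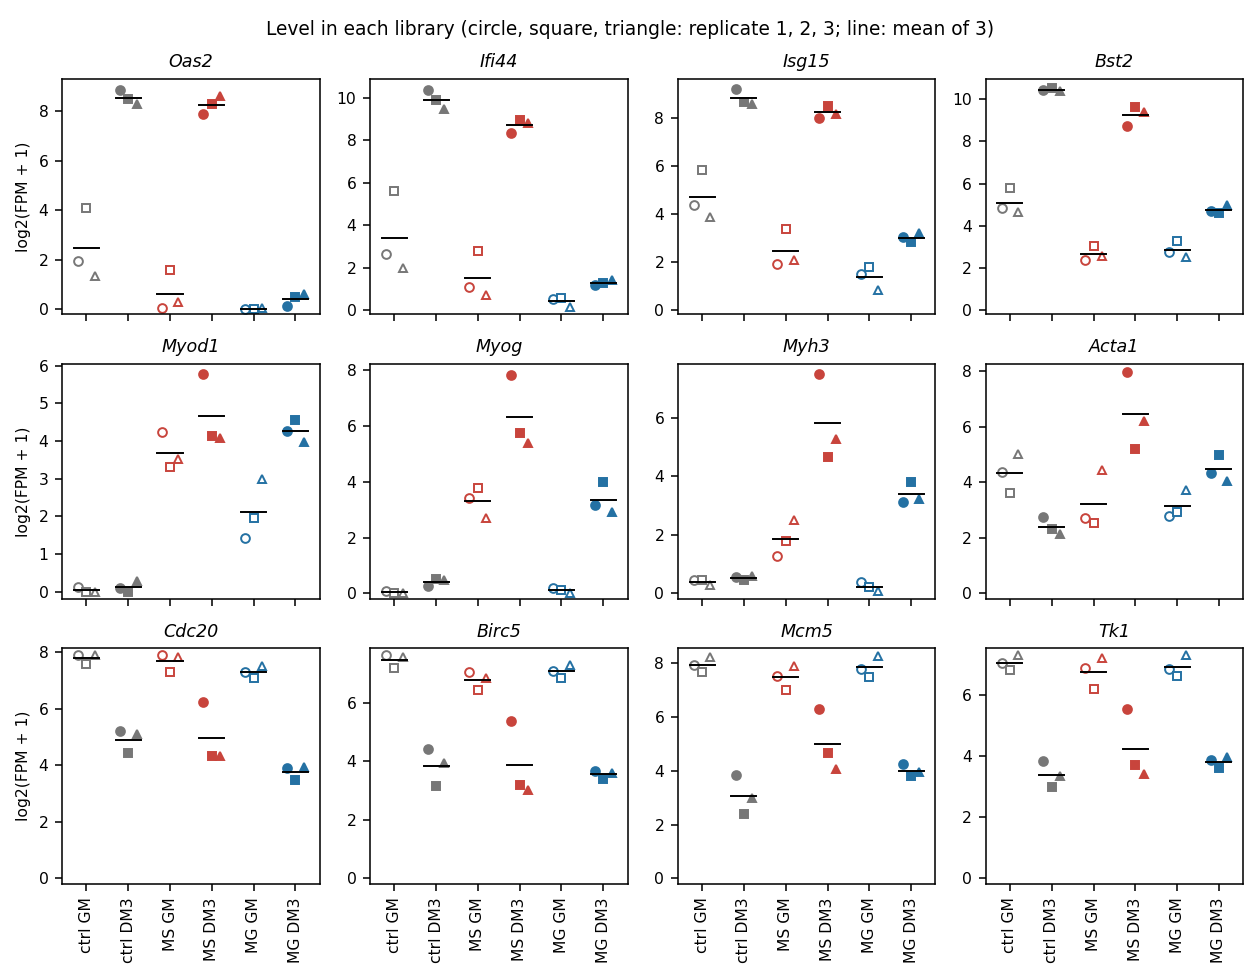
Level of 12 genes in all 18 libraries, as log2(FPM + 1), by cell group and medium (open symbols GM, filled DM3; circle, square and triangle are replicates 1, 2 and 3; the line is the mean of 3). In MUNC spliced cells DM3 replicate 1 is the highest DM3 library for Myog (226 FPM) and Cdc20 (74.3 FPM) and the lowest for Oas2 (238 FPM).

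Thick filament genes, which encode myosins and their binding proteins, rose in 9 of 11 tested members, with 0 lower and a median change of 1.53. Embryonic myosin heavy chain Myh3 was at 1.44, 2.47 and 4.63 FPM in GM and at 177, 24.2 and 37.9 FPM in DM3. It rose by 3.95 ± 0.48 (limma adjusted p = 2.35e-05). Myosin binding protein H (Mybph) went from 0.252, 0.532 and 0.866 FPM to 45.1, 13.6 and 17.5 FPM, a rise of 3.92 ± 0.32. The fast regulatory light chain Mylpf went from 2.52, 3.98 and 8.26 FPM to 159.8, 30.0 and 35.1 FPM, a rise of 3.37 ± 0.49. In these 3 genes every DM3 library lay above every GM library, and replicate 1 was the highest. The other 10 of 21 listed members, among them the adult chains Myh2, Myh4 and Myh7, did not pass the filter. The adult chain Myh1 passed and was among those called higher (1.53 ± 0.46, limma adjusted p = 0.0170). It was at 0.202, 0.257 and 1.62 FPM in GM and at 13.3, 1.12 and 2.13 FPM in DM3, so its media overlapped. Its change was 0.70 without DM3 replicate 1. Without DM3 replicate 1 the median change of the list was 0.70 and 8 members were called higher. With edgeR on recovered reads it was 2.97.

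Thin filament genes rose in 13 of 20 tested members and fell in 1, with a median change of 1.41 (2.94 with edgeR). Skeletal actin Acta1 was at 5.55, 4.82 and 20.5 FPM in GM and at 249.9, 35.4 and 72.9 FPM in DM3. It rose by 3.23 ± 0.59 (limma adjusted p = 0.000615). Cardiac actin Actc1, the sarcomeric actin of early myotubes, rose by 2.82 ± 0.38, from 1.31, 0.990 and 0.938 FPM to 35.7, 5.31 and 12.4 FPM. Fast troponin T (Tnnt3), which ties the troponin complex to tropomyosin, rose by 3.08 ± 0.52. For these genes too the media did not overlap and DM3 replicate 1 was highest. The member that fell was the tropomyosin gene Tpm3, at 273, 236 and 304 FPM in GM and 208, 202 and 179 FPM in DM3. Reads of near-identical genes such as Acta1 and Actc1 may have been dropped by the counting or counted for the wrong gene.

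Z-disc, titin and M-band genes rose in 12 of 20 tested members, with 0 lower and a median change of 0.99 (0.64 without DM3 replicate 1). Myom2, an M-band protein, went from 4.80, 6.86 and 5.07 FPM to 112, 45.8 and 51.4 FPM, a rise of 3.33 ± 0.37. The giant spring protein titin (Ttn) rose by 2.12 ± 0.48, from 8.38, 11.9 and 9.29 FPM to 139, 21.7 and 31.2 FPM. For Ttn, replicate 1 stood well above the other DM3 libraries, and the change without it was 1.33 (limma adjusted p = 0.00339). The call for Ttn was lost when the spread was estimated from the 6 MUNC spliced libraries alone (limma adjusted p = 0.0502).

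Genes of excitation-contraction coupling, the release of calcium that follows a muscle action potential, rose in 15 of 23 tested members with 0 lower. Their median change was 1.21 (0.76 without DM3 replicate 1). Triadin (Trdn), an anchor of the release complex, was at 25.9, 99.9 and 10.2 FPM in GM and at 538, 469 and 333 FPM in DM3. It rose by 3.81 ± 0.62, and here the 3 DM3 libraries lay close together. The calcium pump Atp2a1 rose by 2.90 ± 0.44 and the release channel Ryr1 by 2.35 ± 0.39. Acetylcholine receptor and synapse genes rose in 8 of 13 tested members with 0 lower, at a median change of 0.90 (0.48 without DM3 replicate 1). The fetal receptor subunit Chrng went from 3.18, 8.07 and 3.25 FPM to 103, 27.8 and 32.0 FPM. Agrin (Agrn), which clusters the receptors, went from 44.0, 60.02 and 56.8 FPM to 350.1, 495 and 524 FPM, with replicate 1 the lowest in DM3. Chrng rose by 3.09 ± 0.43 and Agrn by 3.06 ± 0.23.

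Fusion and adhesion genes rose in 4 of 23 tested members and fell in 2, a share near the background of all genes. Both fusogens of the myoblast membrane were among those that rose. Myomaker (Mymk) went from 0.681, 1.06 and 1.12 FPM to 63.7, 11.8 and 15.3 FPM, and myomixer (Mymx) from 0.353, 1.10 and 0.649 FPM to 12, 5.65 and 3.94 FPM. Mymk rose by 3.62 ± 0.39 and Mymx by 2.17 ± 0.28, with no overlap between the media. The junction gene Jam2 fell by 1.06 on the log2 scale, with an SE of 0.15. Muscle isoforms of energy metabolism rose in 3 of 15 tested members and fell in 1, near the background of 17.2% for a rise. Of those that rose, Car3 lost its call without any single library but GM replicates 1 and 2, and with edgeR and DESeq2. Muscle creatine kinase (Ckm) rose by 1.6 ± 0.32, from 0.0252 to 0.0733 FPM in GM to 5.05, 0.732 and 2.15 FPM in DM3. The muscle enolase Eno3 fell by 1.01 on the log2 scale, from 398, 427 and 553 FPM to 305, 221 and 169 FPM.

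The promoter of Mylpf is shown because it rose with the contractile genes and holds an E-box of the CAGCTG type, which the MyoD family can bind. The sequence is the 250 bases before the RefSeq start on GRCm38.p6, chr7:127211358-127211607, plus strand, with the motif in capitals.
Mylpf: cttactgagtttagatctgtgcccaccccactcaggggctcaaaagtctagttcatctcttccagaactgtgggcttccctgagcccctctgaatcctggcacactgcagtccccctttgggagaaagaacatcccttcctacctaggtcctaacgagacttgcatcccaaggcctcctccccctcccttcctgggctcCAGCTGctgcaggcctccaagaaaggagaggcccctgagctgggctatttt
CAGCTG, searched on both strands in the same window, was found in 11.9% of the 10244 tested genes with a RefSeq promoter. The motif was found in 15.3% of promoters of genes that rose and in 9.84% of those of genes that fell. It was found in 8 of 16 thin filament promoters and in 6 of 13 of excitation-contraction coupling (46.2%), and in 3 of 10 of the thick filament (30.0%). In fusion and adhesion it was found in 2 of 14 (14.3%). CACCTG, another E-box, was found in 14.2% of all promoters, 13.7% of those of genes that rose and 5 of 16 thin filament promoters. Its share was 3 of 13 in muscle energy metabolism and 2 of 8 in acetylcholine receptor and synapse genes. It was 2 of 10 in the thick filament, 2 of 13 in Z-disc genes and 2 of 13 in excitation-contraction coupling. For fusion and adhesion it was 2 of 14 and for myogenic transcription factors 0 of 9. A match describes the letters of the window and is not a measured binding site.

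Cell cycle genes fell as a block. All 46 tested DNA replication genes and all 50 tested mitosis genes were called lower, against 18.4% of all tested genes, with median changes of -1.5 and -2.31. The replicative helicase subunit Mcm5 was at 185, 126 and 239.9 FPM in GM and at 77.8, 24.4 and 15.9 FPM in DM3. Thymidine kinase (Tk1) went from 119, 73.9 and 149 FPM to 46.0, 12 and 9.60 FPM. Mcm5 fell by 2.47 on the log2 scale with an SE of 0.45, and Tk1 by 2.57 with an SE of 0.41 (limma adjusted p = 0.000242). In both genes the media did not overlap, and DM3 replicate 1 lay between the GM libraries and the other DM3 libraries.

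Among mitosis genes, survivin (Birc5), a subunit of the chromosomal passenger complex, went from 131, 85.8 and 114 FPM to 40.3, 8.03 and 7.16 FPM. Cdc20, the activator of the anaphase-promoting complex, went from 241, 158 and 227 FPM to 74.3, 19.3 and 19.1 FPM. The centromeric histone gene Cenpa went from 102, 70.7 and 91.8 FPM to 32.9, 6.88 and 8.62 FPM. DM3 replicate 1 again kept the highest DM3 level, and no DM3 library reached a GM library. Birc5 fell by 2.92 on the log2 scale (SE 0.44), Cdc20 by 2.72 (SE 0.37) and Cenpa by 2.69 (SE 0.36), each at a limma adjusted p under the threshold. Without DM3 replicate 1 the medians were -1.86 for replication and -2.96 for mitosis. Of the genes that fell most by the naming rule, Asf1b, Espl1, Aurka and Fam83d also act in chromatin assembly or mitosis, with changes of -2.69, -2.66, -2.65 and -2.59. The lipoprotein receptor Lrp8 headed that list at -2.95 ± 0.48, and the keratin Krt14 and the acyl-CoA synthetase Acsbg1 each changed by -2.69.

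The list of D cyclins, CDK inhibitors and retinoblastoma family genes was mixed, with 5 of 17 tested members higher (29.4%) and 6 lower (35.3%). The shares over all tested genes were 17.2% and 18.4%. Cyclin D1 (Ccnd1), which carries serum signals into the cell cycle, went from 250.3, 124 and 274 FPM to 107, 67.6 and 84.6 FPM and fell by 1.25 on the log2 scale. The inhibitor Cdkn1a, known to rise with cell cycle exit in muscle, was at 207, 129.8 and 148 FPM in GM and at 435, 195 and 181 FPM in DM3. Those groups overlapped, and the change of 0.65 ± 0.26 did not pass (limma adjusted p = 0.0679). The growth arrest genes Gadd45a and Btg2 rose, by 2.44 ± 0.47 and 1.64 ± 0.52, and Btg2 lost its call without DM3 replicate 1 (limma adjusted p = 0.0883) or GM replicate 3 (adjusted p = 0.0885).

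The promoters of Cdc20 and of the mitotic cyclin gene Ccnb2 are shown because both genes fell and match the letters of elements known from G2 and M phase genes. These are the CCAAT box and TTTGAA, the core of the cell cycle genes homology region, and both are in capitals where they lie on the gene's strand. The windows are 250 bases before the RefSeq start on GRCm38.p6, both on the minus strand and written in the direction of the gene, at chr4:118437344-118437593 and chr9:70421555-70421804.
Cdc20: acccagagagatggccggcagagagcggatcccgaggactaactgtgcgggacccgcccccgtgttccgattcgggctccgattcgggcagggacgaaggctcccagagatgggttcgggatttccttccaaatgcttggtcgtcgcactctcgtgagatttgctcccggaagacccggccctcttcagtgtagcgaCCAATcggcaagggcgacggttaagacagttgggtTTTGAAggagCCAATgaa
Ccnb2: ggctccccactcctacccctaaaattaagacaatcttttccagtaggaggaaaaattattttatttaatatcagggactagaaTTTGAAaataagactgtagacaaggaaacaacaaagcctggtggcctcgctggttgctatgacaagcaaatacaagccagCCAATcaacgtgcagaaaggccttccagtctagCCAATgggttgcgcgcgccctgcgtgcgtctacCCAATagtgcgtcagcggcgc
In Cdc20 TTTGAA lies 18 bases before the start, between CCAAT matches at 53 and 8. In Ccnb2 it lies 167 bases before the start, farther out than the CCAAT matches at 87, 54 and 21. Whether a match works as the element was not tested. Ccnb2 itself went from 72.2, 56.7 and 64.5 FPM to 24.5, 6.13 and 6.51 FPM. CCAAT, on either strand, was found in 36.9% of all promoters, in 30 of 42 mitosis promoters (71.4%) and in 20 of 36 replication promoters (55.6%). TTTGAA was found in 10.5% of all promoters and in 13 of 42 mitosis promoters (31.0%). With 50 bases after the start included, TTTGAA was found in 11.8% of all promoters and in 31 of 42 mitosis promoters (73.8%).

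The genes that rose most were interferon-stimulated genes, which cells switch on when type I interferon signals through its receptor. Of 39 tested members of that list 39 rose, by 1.21 (Ifi44l) to 7.62 (Oas2), with a median change of 4.90. Of the 10 genes that rose most by the naming rule 7 are on the list. Summed over the list, the level was 307, 576 and 281 FPM in GM and 6060.7, 9706.7 and 8686.6 FPM in DM3. GM replicate 2 was the highest GM library for 36 of 39 members, and DM3 replicate 1 the lowest DM3 library for 37 of 39. In control cells GM replicate 2 also had the highest sum of its group, 1670.9 FPM against 592 and 411 FPM.

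Oas2, an oligoadenylate synthetase that activates RNase L, was at 0.0252, 1.98 and 0.234 FPM in GM and at 238, 307 and 388 FPM in DM3. It rose by 7.62 ± 0.51 (limma adjusted p = 5.29e-08). Ifi44 went from 1.11, 5.83 and 0.649 FPM to 331, 506 and 454 FPM, a rise of 7.21 ± 0.66. The immunity-related GTPase Iigp1 went from 0.126, 5.15 and 0.307 FPM to 244, 419.7 and 269.9 FPM, a rise of 7.19 ± 0.78. All 3 genes separated the media widely, and the 3 DM3 libraries differed among themselves by less than they differed from any GM library. Tetherin (Bst2), which holds budding virions at the membrane, went from 4.14, 7.13 and 4.91 FPM to 429, 782 and 660.5 FPM. Bst2 rose by 6.60 ± 0.27 and Ifi27l2a by 6.96 ± 0.28, the smallest errors among the 10 genes that rose most. The remaining genes were Ifit3 (6.60), Oasl2 (6.39), Usp18 (6.26), Zbp1 (6.08) and Phf11d (6.01). Irf7, a transcription factor of the pathway, rose as well, from 0.480, 4.11 and 1.57 FPM to 115, 222 and 193 FPM. Reads of near-identical members of the Oas and Ifit families could have been dropped by the counting or counted for the wrong member.

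The promoters of Isg15, a ubiquitin-like protein of this response, and Bst2 are shown because they hold repeats of a motif, TTTC followed by any 2 bases and TTTC, the core of the interferon-stimulated response element. The repeats lie on the strand opposite to the gene and overlap each other, and they are in capitals as they read along the gene's strand. Isg15 itself went from 2.68, 9.33 and 3.17 FPM to 255, 359 and 286 FPM. The windows are 250 bases before the RefSeq start on GRCm38.p6, minus strand, at chr4:156200819-156201068 and chr8:71537473-71537722.
Isg15: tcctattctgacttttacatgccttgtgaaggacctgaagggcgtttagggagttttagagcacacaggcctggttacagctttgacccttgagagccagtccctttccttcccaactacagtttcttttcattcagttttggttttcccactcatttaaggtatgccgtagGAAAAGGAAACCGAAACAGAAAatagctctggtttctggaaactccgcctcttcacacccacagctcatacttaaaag
Bst2: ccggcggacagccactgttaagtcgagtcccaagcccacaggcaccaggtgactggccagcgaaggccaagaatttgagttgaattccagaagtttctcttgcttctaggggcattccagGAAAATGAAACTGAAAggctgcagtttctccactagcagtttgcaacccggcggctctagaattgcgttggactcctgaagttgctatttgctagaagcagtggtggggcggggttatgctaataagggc
Searched on both strands, this motif was found in 2.64% of all promoters, in 107 of 1783 promoters of genes that rose and in 44 of 1920 promoters of genes that fell. Among interferon-stimulated genes with a RefSeq promoter it was found in 15 of 28 (53.6%).

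Growth factor genes of the IGF axis and imprinted growth genes rose in 6 of 17 tested members (35.3%) and fell in 1 (5.88%). Of all tested genes 17.2% rose and 18.4% fell. Igf2, an autocrine signal of differentiating myoblasts, was at 3.63, 6.71 and 3.64 FPM in GM and at 299, 95.2 and 104 FPM in DM3, and rose by 4.72 ± 0.46. Igf1 went from 3.33, 7.04 and 1.42 FPM to 42.3, 42.7 and 71.5 FPM, a rise of 3.56 ± 0.51. The binding protein gene Igfbp6 fell by 0.92 on the log2 scale, with an SE of 0.18. H19, the noncoding RNA beside Igf2, did not pass (1.31 ± 0.55, limma adjusted p = 0.0758), although its DM3 libraries lay above its GM libraries.

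FoxO, atrophy and starvation genes rose in 15 of 25 tested members with 0 lower, at a median change of 0.69. Txnip, an inhibitor of thioredoxin that also limits glucose uptake, went from 11, 24.9 and 12 FPM to 143, 167 and 210.2 FPM, a rise of 3.44 ± 0.47. The ubiquitin ligase gene Fbxo32 (atrogin-1) was at 21.6, 40.9 and 22 FPM in GM and at 42.1, 93.9 and 92.5 FPM in DM3. No DM3 library fell within the GM range, although replicate 1 exceeded it by little, and Fbxo32 rose by 1.38 ± 0.32. Serum and growth factor response genes moved in both directions, with 9 of 31 higher (29.0%) and 7 lower (22.6%). The shares of all tested genes were 17.2% and 18.4%. The immediate early gene Fos was at 87.8, 19 and 5.61 FPM in GM and at 314, 392 and 177 FPM in DM3, so its GM libraries spread widely. Fos rose by 3.62 ± 1.03 and lost its call without GM replicate 3 (limma adjusted p = 0.0779). The receptor tyrosine kinase inhibitor Spry1 rose by 2.81 ± 0.31.

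Collagen and matrix genes rose in 12 of 36 tested members (33.3%) and fell in 3 (8.33%), against 17.2% and 18.4% of all tested genes. Decorin (Dcn), a small proteoglycan, went from 17.4, 74.6 and 12.7 FPM to 177, 463 and 549.5 FPM, a rise of 3.74 ± 0.72. Periostin (Postn) rose by 1.86 ± 0.32. The collagen VI chain Col6a3 fell by 1.70 on the log2 scale (SE 0.23), from 771, 743 and 995 FPM to 252, 194 and 338 FPM. Of 18 tested Notch pathway genes 3 rose and 3 fell, near the 17.2% and 18.4% of all tested genes. The ligand gene Dll1 rose by 1.88 ± 0.26, while the ligand gene Jag2 fell by 1.22 on the log2 scale (SE 0.27).

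For cholesterol synthesis and uptake the number of calls turned on DM3 replicate 1. With all libraries 2 of 27 tested members rose and 2 fell (7.41% each), below the 17.2% and 18.4% of all tested genes. The median change was -0.38. Without DM3 replicate 1, 22 fell and 2 rose, at a median of -0.90, and without DM3 replicate 3 the median was -0.04. Hmgcs1, an early enzyme of the pathway, was at 411, 417 and 396 FPM in GM and at 671, 256 and 154 FPM in DM3. Replicate 1 lay above all GM libraries and the other DM3 libraries below them. The change of Hmgcs1 was -0.45 with all libraries and -1.04 without that one. CCAAT was found in 16 of 19 promoters of this list (84.2%).

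DM3 replicate 1 was examined across the lists, as a description with no test. This library had been singled out with earlier results of these data known, so the counts only describe it. It was the highest DM3 library for 10 of 11 thick filament genes, 18 of 20 thin filament genes, 17 of 20 Z-disc genes and 19 of 23 genes of excitation-contraction coupling. Of 12 tested myotube markers it was highest for 12. Summed over those markers the level was 36.6, 51.9 and 60.2 FPM in GM and 1286.1, 239 and 312 FPM in DM3. By these genes replicate 1 held the most myotube RNA of the 3 DM3 libraries.

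The same library was also the highest of DM3 for 46 of 46 replication genes, 50 of 50 mitosis genes and 25 of 27 cholesterol genes. Across all 2388 genes that rose it was the lowest DM3 library for 68.6%, and across the 2545 that fell it was the highest for 71.9%. For the whole response it thus lay nearest to GM, as on the first principal component. Replicate 1 stood highest over the mean of replicates 2 and 3 for Mycl (by 2.78 on the log2 scale), Lrp8 (2.60), Myh3 (2.51), Myh1 (2.47) and Bub1 (2.47), which join muscle myosins to a mitotic kinase. Among the genes for which it stood lowest were Sectm1a (-2.80), Plac8 (-2.04), Ifi207 (-1.97) and Cfb (-1.84). GM replicate 2 leaned the other way, as the highest GM library for 69.0% of the genes that rose and the lowest for 76.1% of those that fell.

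**Figure D3:**
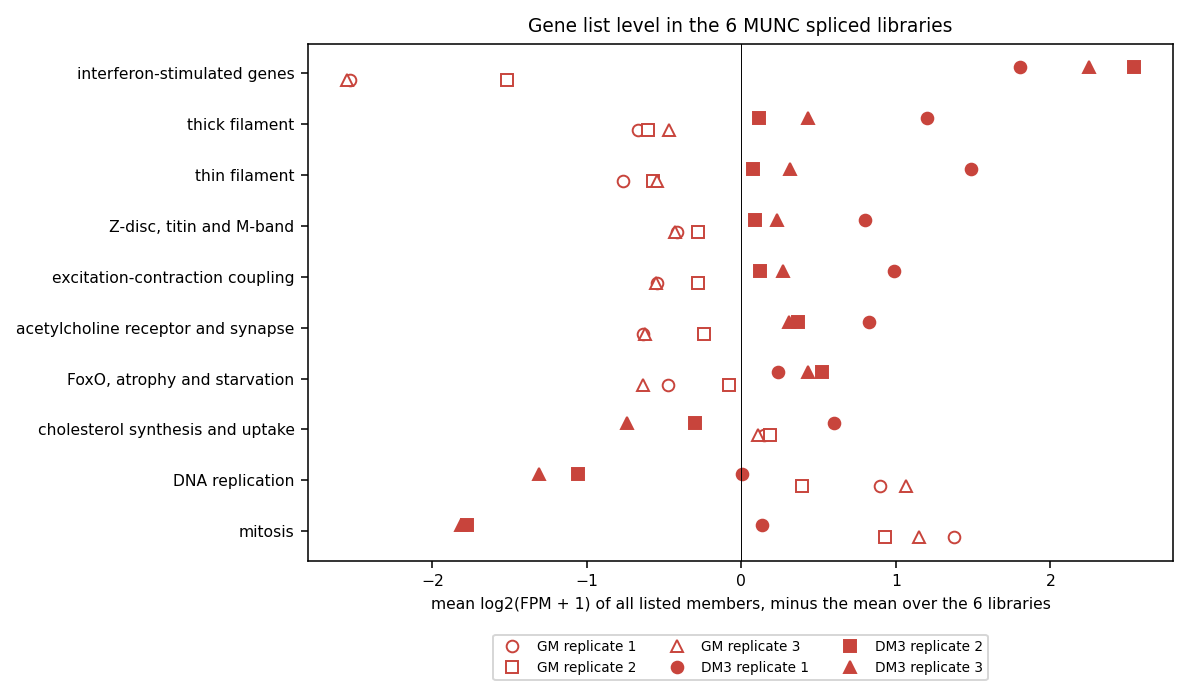
Mean log2(FPM + 1) of the listed genes in each of the 6 MUNC spliced libraries, minus the mean over the 6 libraries, for 10 lists (open symbols GM, filled DM3; circle, square and triangle are replicates 1, 2 and 3). DM3 replicate 1 is the rightmost library for the muscle lists and for cholesterol, and for replication and mitosis it lies between the GM libraries and the other DM3 libraries.

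The response was then set beside those of control and MUNC genomic cells, whose libraries it does not share. In control cells 8078 genes (58.2%) were called between the media and in MUNC genomic cells 7127 (51.4%). Of the 2388 genes that rose in MUNC spliced cells 1773 also rose in control cells, which is 74.3% of the former and 43.1% of the 4111 (29.6% of tested genes) that rose in control. Of the 2545 that fell 2041 also fell in control cells, 80.2% of the former and 51.5% of the 3967 (28.6%) that fell in control. In control 35 and 42 of these genes were called in the opposite direction. With MUNC genomic cells 1527 risen genes were shared, 63.9% of those in MUNC spliced cells and 41.9% of the 3643 (26.3%) in MUNC genomic cells. Of fallen genes 1968 were shared, 77.3% and 56.5% of each set, the latter of 3484 genes (25.1%).

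The difference between responses was tested as an interaction. Against control 1993 genes (14.4%) were called, 1030 (7.43%) with a higher response in MUNC spliced cells and 963 (6.94%) with a lower one. After rescaling each library to the same FPM sum the split was 802 higher and 1134 lower, and edgeR on the recovered reads gave 1042 higher and 635 lower. Without GM replicate 2 of MUNC spliced cells 1203 genes were called, without DM3 replicate 2 of control 1093 and without DM3 replicate 3 of control 1063. Against MUNC genomic cells 1460 genes (10.5%) were called, 743 (5.36%) higher and 717 (5.17%) lower. Without GM replicate 1 of MUNC genomic cells 953 were called and without their DM3 replicate 3 930 were.

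**Figure D4:**
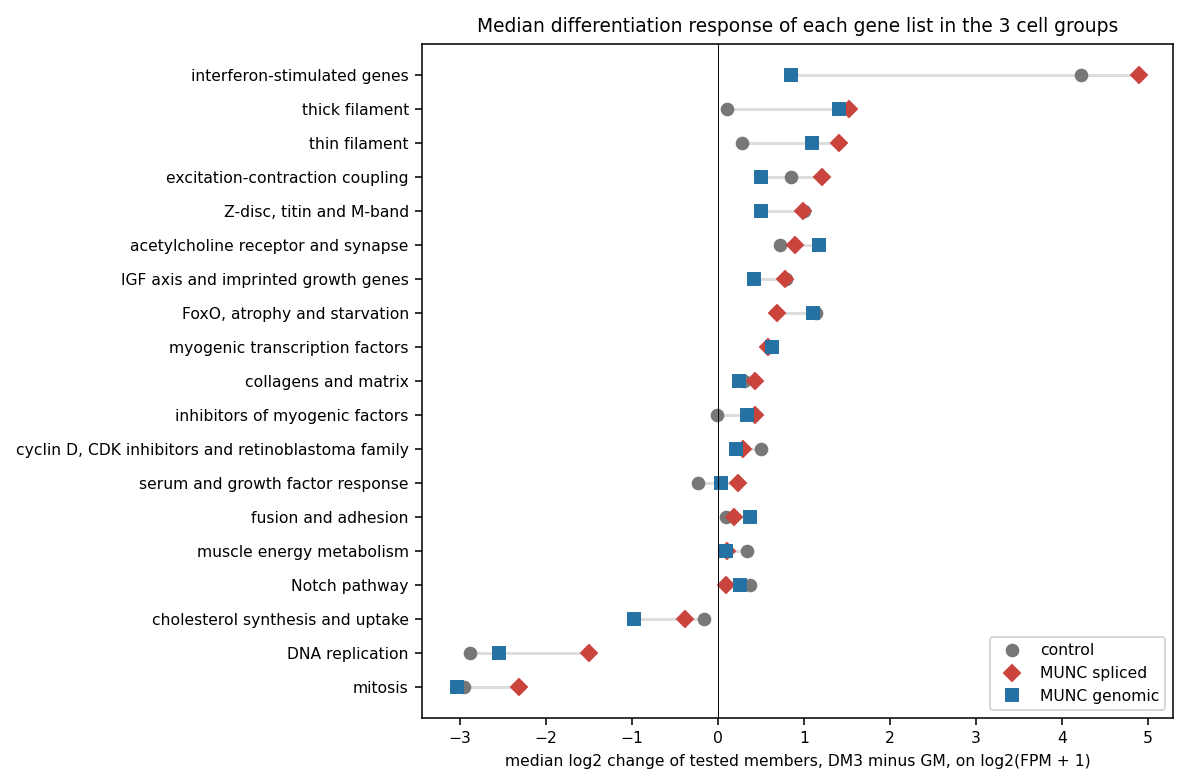
Median log2 change (DM3 minus GM, on log2(FPM + 1)) of the tested members of 19 gene lists in control, MUNC spliced and MUNC genomic cells. For interferon-stimulated genes the medians are 4.23, 4.90 and 0.85, and for thick filament genes 0.10, 1.53 and 1.42.

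Muscle lists varied in how many members responded higher or lower than in control, against 7.43% and 6.94% of all tested genes. Of thick and thin filament genes 4 of 11 and 4 of 20 were called higher and 0 lower. Of acetylcholine receptor and synapse genes 1 of 13 was called higher and 4 lower, and of muscle energy metabolism 3 of 15 and 5. In excitation-contraction coupling 3 of 23 were higher and 1 lower, and in fusion and adhesion 3 of 23 and 1. Z-disc genes, with 1 of 20 higher and 2 lower, lay near the shares of all genes, at a median difference of 0.05. Acta1 had the highest difference among the genes named by rule. It fell in control from 20.7 ± 9.96 to 4.35 ± 1.18 FPM (SD, n = 3) and rose in MUNC spliced cells from 10.3 ± 8.84 to 119 ± 115 FPM. The responses differed by 5.16 ± 0.83 (log2, SE, limma adjusted p = 0.00132). Myh3 was at 0.309 ± 0.0815 and 0.444 ± 0.0629 FPM in control, and its responses differed by 3.80 ± 0.68 (limma adjusted p = 0.00284). Mybph and Igf2 differed by 3.88 and 3.76 and Mymk by 3.61. On the recovered reads the differences of Mybph and Igf2 were 3.41 and 2.07 with edgeR and 3.12 and 2.02 with DESeq2. Their calls were lost with both (edgeR adjusted p = 0.583 and 0.247). In control Igf2 was at 0.149 ± 0.0410 FPM in GM and at 1.33 ± 0.837 FPM in DM3. Of 12 myotube markers 8 had a higher response than in control, and Tnnt1, Tnnt3, Mylpf and Ttn were not called. Myod1 and Myog were at 0.0285 ± 0.0493 and 0.0287 ± 0.0354 FPM in control GM and at 0.0993 ± 0.112 and 0.344 ± 0.132 FPM in control DM3. The response of Myog was higher than in control by 2.64 (limma adjusted p = 0.0135), and that of Myod1 was not called (0.88, adjusted p = 0.320). Against MUNC genomic cells, 1 of the 12 myotube markers was called higher and 0 lower.

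Nefm, a neurofilament, appeared among the highest differences from control although its change within MUNC spliced cells was not called. It was at 0.101, 0.0733 and 0.162 FPM in GM and at 0, 0.0348 and 0 FPM in DM3, while control fell from 161 ± 71.1 to 3.83 ± 0.824 FPM. Its difference was not called with edgeR (adjusted p = 0.503) or DESeq2 (adjusted p = 0.196). Replication genes fell less than in control in 25 of 46 cases and less than in MUNC genomic cells in 8. Of all tested genes 7.43% and 5.36% had a higher response than in these lines. The list medians were -1.5, -2.89 and -2.55 in MUNC spliced, control and MUNC genomic cells. DM3 replicate 1 was the highest DM3 library of MUNC spliced cells for all 46 genes, and without it their median was -1.86. For mitosis genes the difference from control was called for 1 of 50 and from MUNC genomic cells for 0 of 50.

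Genes with a lower response than in control were led by Ms4a4d, Hgf, Ifitm1, Phex and Acsbg1. Ms4a4d had 0 reads in the GM libraries of MUNC spliced cells, and its difference of -3.37 turned to 0.90 with edgeR, not called. Hepatocyte growth factor (Hgf), an activator of satellite cells, rose in control from 17.4 ± 4.69 to 100.2 ± 16.8 FPM and fell in MUNC spliced cells from 11.8, 14.4 and 9.74 FPM to 8.92, 6.01 and 5.59 FPM. The responses differed by -3.22 ± 0.37 (limma adjusted p = 0.000118). Phex, an endopeptidase gene, rose in control from 33.4 ± 12.5 to 216 ± 33.7 FPM and was at 5.43 to 11.1 FPM in the MUNC spliced libraries. Acsbg1 was at 17.9, 20.7 and 25.8 FPM in GM and at 2.68, 1.90 and 2.84 FPM in DM3, against 60.1 ± 17.6 and 68.6 ± 10.1 FPM in control.

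The response of interferon-stimulated genes was higher than in MUNC genomic cells for 37 of 39 members, with Ifit2 and Gbp2 not called, against 5.36% of all tested genes. Of the 39, 38 rose in control and 16 in MUNC genomic cells. Against control 2 members were called higher (Bst2 and Cxcl10) and 3 lower (Ifi44l, Oasl1 and Ccl5), shares near the 7.43% and 6.94% of all tested genes. The summed level of the list in control DM3 was 16418, 13145 and 10734 FPM, above all 3 DM3 libraries of MUNC spliced cells. Oas2 was at 0.0188 ± 0.0214 FPM in MUNC genomic GM and at 0.349 ± 0.223 FPM in DM3, and its responses differed by 7.23 ± 0.72 (limma adjusted p = 1.04e-05). Ifi44, Iigp1, Oas1a and Gm4951 followed, with differences of 6.34, 6.27, 5.68 and 5.35. With edgeR the differences were 4.45 for Oas2, 3.58 for Iigp1 and 11.4 for Gm4951, and these calls were lost (adjusted p = 0.617, 0.499 and 0.336). DESeq2 gave 4.41 for Oas2 and 3.57 for Iigp1, also not called. Iigp1 went from 0.0737 to 1.04 FPM in MUNC genomic cells. At levels as low as those of Oas2 and Iigp1 there, log2(FPM + 1) records less than the ratio.

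The genes with the lowest responses relative to MUNC genomic cells were led by Osr2 and Clu. Osr2, a zinc finger transcription factor, was at 0.418 to 0.757 FPM in the 6 MUNC spliced libraries and rose from 0.548 ± 0.362 to 38.3 ± 3.61 FPM in MUNC genomic cells. Clusterin (Clu) rose there from 1.12 ± 0.336 to 69.0 ± 27.4 FPM and in MUNC spliced cells was at 1.77, 1.5 and 0.631 FPM in GM and 1.86, 6.78 and 2.12 FPM in DM3.

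No tested marker of another cell type was called higher. Among adipocyte, osteoblast, macrophage and leukocyte, and endothelial markers 0 of 11 that passed the filter were called. Summed adipocyte markers were at 20.4 to 26.6 FPM in GM and 22.4 to 23 FPM in DM3, with Cidec at 0 in all 6 libraries. Summed macrophage and leukocyte markers were at 3.12 to 4.59 and 2.25 to 3.36 FPM, with Adgre1 and C1qa at 0 in all 6. Endothelial markers summed to 0.935 to 1.74 and 1.24 to 1.63 FPM. Osteoblast markers summed to 1720.0 to 2837.5 FPM in GM and 1493.1 to 2287.3 FPM in DM3, nearly all of it Spp1, with Ibsp at 0. Smooth muscle markers summed to 1974.9 to 2802.2 and 2068.6 to 3415.3 FPM, mostly Acta2, and 1 of 7 was called, lower. Of 5 tested neuronal markers 2 fell, Tubb3 and Nefl. Of 8 tested myoblast markers 3 rose (Myf5, Des and Chrna1), and without DM3 replicate 1 only Myf5 was called. Des and Chrna1 also lost their calls without GM replicate 1 or 3, and Chrna1 without DM3 replicate 2. Among these markers Pax3 was at 0 in all 6 libraries and Pax7 was listed at 0 to 0.147 FPM.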

How the data were processed

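Polyadenylated RNA of 18 libraries (6 groups of 3) was sequenced, and 1 table of 35275 genes was deposited. Its values are a normalized signal that the authors made before depositing it, named FPM per the file headers. The submitters' processing notes name STAR, HTSeq, DESeq2 and the build mm10. Every value was a whole read count divided by a size factor of its library, within 0.1 read, and the recovered depth was 38416702 to 68788327 reads. At this depth 0 reads allow up to 0.0757 FPM, a limit that covers counting error only. Genes were named by identifier (97.8% matched).

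The design assumed normalized values, so log2(FPM + 1) was tested with limma 3.58.1 in R 4.3.3 (mean trend, all 6 groups in 1 fit, 12 residual degrees of freedom). Genes needed at least 0.5 FPM in at least 3 libraries, and p-values were adjusted over all 13869 genes by Benjamini-Hochberg. Responses were compared by interaction contrasts. The fit was also run on simulated counts drawn independently for each library. Those counts held no shared replicate effect and no outlying library, so they do not test the fit for either. Alternatives were other pseudocounts, filters and scalings, edgeR 4.0.16 and DESeq2 1.42.0 on the recovered reads, and leaving out each library.

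Genes are named where they led a list, rose or fell most, differed most between lines or set DM3 replicate 1 apart, at 5 FPM or more in the higher group, with other list members where a role needed them. The comparison, the members and the gene lists were chosen with earlier results of these data known. Promoters are from RefSeq on GRCm38.p6, of which 10244 matched a tested gene. Whether replicates were separate cultures is not stated beyond the word biological, so p-values measure the spread between these libraries. Results for some genes are not reported here.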

Additional observations from a re-analysis of the deposited data

Results flagged for a closer look

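The differentiation response of MUNC spliced cells differed from that of control cells for 1993 genes and from that of MUNC genomic cells for 1460 genes, by the interaction test in limma (adjusted p under the threshold). Against control the highest differences on the log2 scale were 5.16 for Acta1, 4.86 for Nefm, 3.88 for Mybph, 3.80 for Myh3 and 3.76 for Igf2. The lowest were -3.37 for Ms4a4d, -3.22 for Hgf, -3.10 for Ifitm1, -3.07 for Phex and -2.91 for Acsbg1. Nefm was at 0 to 0.162 FPM in MUNC spliced cells, so its difference comes from the fall in control. Ms4a4d had 0 reads in all 3 GM libraries of MUNC spliced cells and 0.304, 5.31 and 1.48 FPM in DM3.

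Against MUNC genomic cells the highest differences were 7.23 for Oas2, 6.34 for Ifi44, 6.27 for Iigp1, 5.68 for Oas1a and 5.35 for Gm4951. The lowest were -4.76 for Osr2, -4.11 for Clu, -3.91 for Myh14, -3.71 for Fam107a and -3.71 for Sprr1a.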

How the results depend on the processing

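For MUNC spliced DM3 against GM, 4933 genes were called, 1253 with an absolute log2 change of at least 1, 3046 when the spread came from the compared groups alone and 3297 to 5378 when 1 library was left out. For the difference from control (1993 genes) the same settings gave 763, 1214 and 1063 to 2434, and for that from MUNC genomic cells (1460 genes) 686, 1192 and 930 to 1597. edgeR gave 4653, 1677 and 991 genes and DESeq2 5217, 2415 and 1713. Whether replicate numbers pair libraries was checked on the deviations of each library from its group mean, across tested genes. Between same-numbered GM and DM3 libraries of MUNC spliced cells these deviations correlated at 0.376, 0.217 and 0.0163. The highest correlations with another number were -0.0791, 0.322 and 0.0935, so pairing of these libraries was not settled. Deviations of same-numbered GM libraries of MUNC spliced cells and of the other lines correlated at 0.456 to 0.727 in 6 pairs. With another number the highest correlation was 0.11. The interaction fits leave out this pattern. DM3 deviations of MUNC spliced cells correlated at 0.264, 0.171 and 0.34 with same-numbered control and at 0.32, 0.0939 and 0.434 with MUNC genomic libraries. The highest correlations with another number were 0.0319, 0.159 and -0.153 for control and -0.0684, 0.0193 and 0.0127 for MUNC genomic libraries. With the replicate number as a block the counts were 6616, 3868 and 2716.

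For named genes in the main comparison 1296 values kept their side of the threshold, 78 (18 genes) lost the call and 2 (Myod1) gained it. Car3, Chrna1, Des, Fosb, Snai2 and Tcf4 were among the genes that lost it. In the difference from control Ms4a4d reversed to 0.90 with edgeR and 0.13 with DESeq2, neither called, while Igf2, Mybph and Nefm lost their calls with both. In the difference from MUNC genomic cells Oas2 and Iigp1 lost theirs with both, and Gm4951 and Myh14 with edgeR. The cause was not tested.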

Other observations

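Lists of genes related to the interferon response were drawn up after the values had been seen and carry no test of the list. All 17 tested genes of MHC class I antigen presentation rose in MUNC spliced cells, with a median change of 2.35, against 2.49 in control and 0.77 in MUNC genomic cells. The light chain gene B2m went from 224, 225 and 159 FPM to 1236.0, 2187.1 and 1714.3 FPM and the peptide transporter Tap1 from 3.23, 3.35 and 3.07 FPM to 21.9, 33.1 and 30.8 FPM. Nlrc5, the transactivator of class I genes, went from 0.252, 0.238 and 0.271 FPM to 4.29, 9.03 and 8.59 FPM. In these 3 genes the media did not overlap and DM3 replicate 1 was the lowest DM3 library. Reads of the similar H2 genes may have been dropped by the counting or counted for the wrong gene.

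Of 8 tested complement genes 7 rose, with a median change of 1.82. C1s1, a protease of the first component, went from 16.2, 35.9 and 11.7 FPM to 95.7, 204 and 235 FPM. Of 14 tested genes for interferon ligands, sensing and receptors 4 rose (Ifnar2, Tlr3, Irf1 and Socs1) and 2 fell (Mavs and Cgas), against 17.2% and 18.4% of all tested genes. Irf1 lost its call without GM replicate 1 or 3 or DM3 replicate 2 (limma adjusted p of 0.0602 to 0.125), and Cgas when the spread came from the compared groups alone (adjusted p = 0.0543). The double-stranded RNA receptor Tlr3 went from 5.98, 5.76 and 4.29 FPM to 22.9, 31.2 and 22.2 FPM. The ligand gene Ifnb1 was at 0 to 0.0917 FPM in GM and at 0.133, 0.157 and 0.181 FPM in DM3, and did not pass the filter. Among 15 glycolysis genes 1 rose (Pdk1) and 2 fell (Gapdh and Pkm), below those shares. Each lost its call when a single library was left out, Pdk1 without GM replicate 3 (limma adjusted p = 0.0554), Pkm without DM3 replicate 3 (0.063) and Gapdh without GM replicate 3, DM3 replicate 2 or DM3 replicate 3 (0.0526 to 0.135).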
